A study of Mus musculus with 3 samples.

Results

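Hyaluronan genes were followed in NIH3T3 cells, a long-established mouse embryo fibroblast line. The 8 genes are the hyaluronan synthases *Has1*, *Has2* and *Has3*, the hyaluronan-binding genes *Vcan*, *Cd44* and *Tnfaip6*, and the hyaluronidases *Hyal1* and *Hyal2*. They were taken by gene symbol from a table of 15554 rows, and each symbol occupied 1 row. Cells in serum-free IMDM medium were left without stimulation (CTRL) or received GDF15 protein at 100 ng/mL or TGF-β protein at 4 ng/mL for 24 h, in all groups after 24 h without serum. RNA was pooled within each treatment, so each treatment is a single library. None of the differences can be checked against replicates, and p-values are not reported. The comparison asks how fibroblasts respond to GDF15, beside the response to TGF-β, a known activator of fibroblasts.

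Hyaluronan is a long, unsulfated sugar chain of the extracellular matrix. Has enzymes in the plasma membrane build it from UDP-glucuronic acid and UDP-N-acetylglucosamine and extrude it as it grows. Versican, encoded by *Vcan*, is a large proteoglycan whose head binds the chain. CD44 is its main receptor on the cell surface, and TSG-6, encoded by *Tnfaip6*, links protein heavy chains onto it. Hyaluronidases cut the chain, *Hyal2* at the cell surface and *Hyal1* in lysosomes. In fibroblasts, a coat of hyaluronan and versican is known to accompany proliferation and migration.

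Values are FPKM, the fragments of a gene scaled to its exon length and to the fragments mapped in the library, so that levels of different genes may be set side by side. The change of a gene is the difference of its log2(FPKM + 1) between a stimulated library and CTRL, and a change over 1 in size meets the criterion of 2-fold that the study used. The pseudocount of 1 makes changes of weakly expressed genes look smaller. Depth was estimated from the single-fragment steps of low FPKM as 16900000, 19700000 and 15800000 fragments for CTRL, GDF15 and TGF-β. The counting intervals below come from these estimates, have a level of 95% and cover counting error only. Since replicates are missing, the local spread serves as a yardstick. It is the median absolute deviation, scaled to an SD, among the rows nearest in mean FPKM. Rows with a mean FPKM of 1 or more, 9226 in all, are called expressed here. Over them, local spreads had medians of 0.21 (GDF15) and 0.22 (TGF-β). Of 10 fibroblast markers, 8 had an FPKM of at least 1 in each library, whereas *Lum* was listed at 0 in CTRL and GDF15. None of 5 epithelial and 4 endothelial markers reached an FPKM of 1, and *Epcam* was at 0 throughout. Of 5 leukocyte markers, 2 did, and the 5 summed to an FPKM of 5.91 to 7.49 per library. The part of such cells in the results was not tested.

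The promoter stretches of *Vcan* and *Tnfaip6* are shown because these were the members furthest from CTRL, in opposite directions. Sequences are from RefSeq (GRCm38.p6), read 5′ to 3′ on the strand of the gene. Both end at the base before the RefSeq start or, where this comes earlier, the first annotated exon base. The stretch of *Vcan* is chr13:89742513-89742762 (250 bases, minus strand, 62.4% G and C), and that of *Tnfaip6* is chr2:52037863-52038008 (146 bases, plus strand, 44.5% G and C). Capitals mark exact matches, on either strand, of the motifs CAGAC (Smad), TGACTCA (AP-1), CATTCC (TEAD) and TATAAA.
Vcan: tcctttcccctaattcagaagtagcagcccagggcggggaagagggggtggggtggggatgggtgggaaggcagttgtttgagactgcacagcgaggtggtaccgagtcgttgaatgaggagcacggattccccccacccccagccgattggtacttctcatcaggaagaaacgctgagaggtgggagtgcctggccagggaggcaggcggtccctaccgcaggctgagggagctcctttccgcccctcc
Tnfaip6: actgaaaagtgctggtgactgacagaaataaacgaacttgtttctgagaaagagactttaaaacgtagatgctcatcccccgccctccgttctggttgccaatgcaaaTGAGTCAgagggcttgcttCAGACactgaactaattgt
In *Tnfaip6*, the capitals are TGAGTCA, the reverse complement of the AP-1 motif, whose first base lay 142 bases before the RefSeq start, and CAGAC at 123 bases. The stretch of *Vcan* held no match of these letters. Within windows of 300 bases around the start, an AP-1 match was present in 5.20% of 32851 promoters, CAGAC in 49.6%, CATTCC in 14.7% and TATAAA in 13.6%. A match of CAGAC is therefore common. Windows were found for 6 of the 8 genes, not for *Has2* and *Has3*. CAGAC or its reverse complement was in those of *Has1*, *Hyal1* and *Tnfaip6*, and CATTCC in those of *Hyal2* and *Tnfaip6*, in the latter 8 bases before the start and beyond the printed stretch. These are matches of letters only.

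None of the 8 genes passed 2-fold in any comparison of libraries. The criterion was passed by 0.289% of all rows for GDF15 against CTRL, 0.913% for TGF-β against CTRL and 0.103% for TGF-β against GDF15. At a lower bound of 0.5 in size, which was chosen after the values were seen, *Vcan* was higher and *Tnfaip6* was lower in both stimulated libraries. That is 2 of 8 genes for each stimulus, where 3.11% of all rows passed for GDF15 (1.22% higher, 1.9% lower) and 5.32% for TGF-β (2.22% higher, 3.11% lower). The call of *Tnfaip6* at this bound is lost for both stimuli when FPKM are scaled to a common upper quartile (-0.49 and -0.47) or the trend with transcript length is subtracted (-0.39 and -0.40). For TGF-β it is also lost when the median change of rows of like FPKM is subtracted (-0.45). This leaves 1 of 8 genes, *Vcan*. Between the stimulated libraries, 0 of 8 passed, with 1.74% of all rows. The 8 genes had a median change of -0.04 with GDF15 and 0.01 with TGF-β, beside 0 over all rows for each. For the 6 expressed members it was -0.005 and -0.09, beside -0.03 and -0.07 over the 9226 expressed rows. The GDF15 and TGF-β comparisons have their CTRL library in common, and a lower value of a transcript may mean fewer cells that make it or less RNA of it per cell, which cannot be told apart here.

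**Figure D1:**
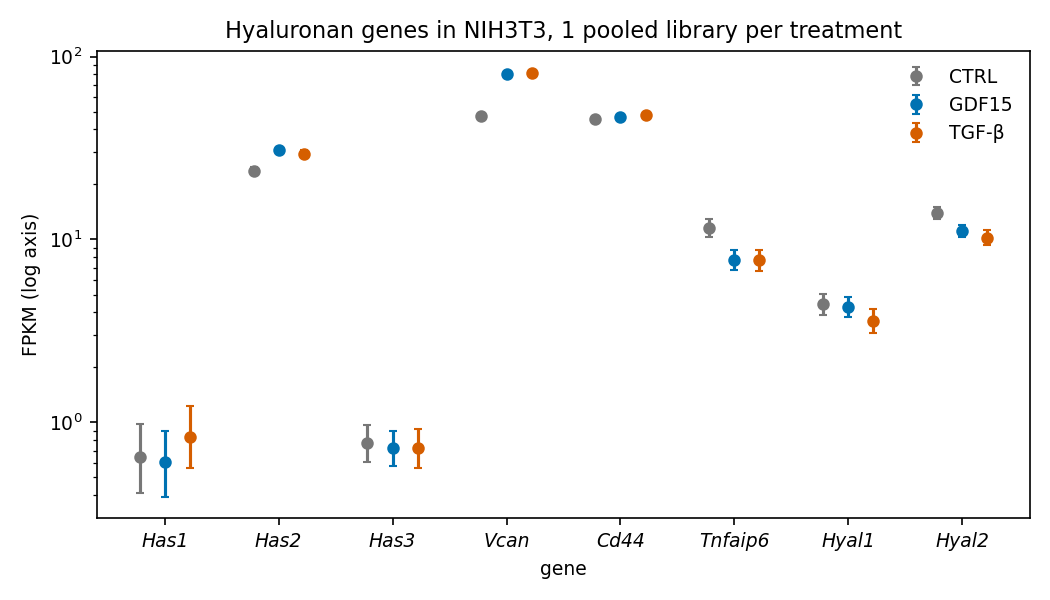
FPKM (log axis) of the 8 hyaluronan genes in the CTRL, GDF15 and TGF-β libraries, 1 pooled library each, with counting intervals of 95% as bars. *Vcan* goes from 47.4 in CTRL to 80.0 and 81.1, *Tnfaip6* from 11.5 to 7.74 and 7.69, and *Has1* and *Has3* stay below 1.

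Among the synthases, *Has2* was the main transcript in NIH3T3. *Has2*, the enzyme on which most hyaluronan of the embryo depends, lies on chromosome 15 of GRCm38 (56665627 to 56694539, minus strand) and has a single coding transcript of 4237 bases with 4 exons in GENCODE M21. Its FPKM was 23.8 in CTRL, 30.9 with GDF15 and 29.4 with TGF-β. Both stimulated libraries were above CTRL and close to each other. The level was 30.0% above CTRL in GDF15 and 23.7% above CTRL in TGF-β. This is a change of 0.36 with GDF15 and 0.30 with TGF-β, which is 1.89 and 1.94 times the local spread from the local median. On the log2 scale without a pseudocount, the counting interval was 0.29 to 0.47 for GDF15 and 0.21 to 0.40 for TGF-β, above 0 for each. A change as high was found in 4.78% of the 9226 rows for GDF15 and 7.68% for TGF-β. Between the stimulated libraries, the counting interval of *Has2* ran from -0.16 to 0.01. An antisense gene, *Has2os*, shares 182 exon bases with *Has2* on the opposite strand. The library kit keeps the strand, but whether it was used in counting is not stated.

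*Has1* and *Has3* were near the lower end of what these libraries measure. *Has1* (chromosome 17, 17843323 to 17855205) reached an FPKM of 0.650 in CTRL, 0.606 with GDF15 and 0.830 with TGF-β. These values correspond to an estimated 23, 25 and 28 fragments. The TGF-β library was the highest, yet its counting interval against CTRL, -0.47 to 1.24 on the log2 scale, spans 0. *Has3* (chromosome 8, 106870242 to 106884566) was at an FPKM of 0.776 in CTRL and of 0.722 and 0.726 with GDF15 and TGF-β, an estimated 77, 84 and 68 fragments. Its intervals spanned 0 too (-0.56 to 0.37 for GDF15 and -0.58 to 0.40 for TGF-β). For *Has1* and *Has3*, differences within these intervals were not detectable at this depth. *Has3* shares 352 exon bases with *Chtf8* on the opposite strand, whose FPKM was 41.6, 45.0 and 40.5. The part of *Chtf8* fragments in the *Has3* value was not tested.

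*Has2* made up between 94.3% and 95.9% of the summed FPKM of the synthases in the 3 libraries. Its level was 36.6 times that of *Has1* and 30.6 times that of *Has3* in CTRL. The sum of the synthases was 25.2 in CTRL, 32.2 with GDF15 and 31.0 with TGF-β, and the order of the sums was that of *Has2*.

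*Vcan* showed the largest difference of the 8 genes in each comparison with CTRL. The gene lies on chromosome 13 (89655312 to 89742509, minus strand). Its FPKM was 47.4 in CTRL, 80.0 with GDF15 and 81.1 with TGF-β. Both stimulated libraries were well above CTRL and nearly equal, 1.69 and 1.71 times its level. This is a change of 0.74 with GDF15 and 0.76 with TGF-β, which is 3.66 and 4.07 times the local spread from the local median. The counting intervals were narrow, 0.72 to 0.79 for GDF15 and 0.74 to 0.81 for TGF-β on the log2 scale without a pseudocount, with an estimated 9936, 19548 and 15931 fragments. Of the 9226 expressed rows, 64 rows were as far up by GDF15 (0.694%) and 148 rows by TGF-β (1.60%). Between the stimulated libraries, the interval of *Vcan* was -0.01 to 0.05.

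The value of *Vcan* has a limit in its length. The longest coding transcript spans 12427 bases and 15 exons, and the 8 coding transcripts in GENCODE M21 range down to 294 bases. Splicing of *Vcan* is known to leave out large exons that carry the chondroitin sulfate chains. The gene-level FPKM does not tell these forms apart. In these libraries, changes went up with transcript length. Across 9194 genes, which are not independent replicates, Spearman's rho was 0.48 for GDF15 and 0.24 for TGF-β. The median change by GDF15 was -0.19 for 2286 genes with transcripts up to 2000 bases and 0.17 for 479 genes over 8000 bases. After subtraction of this trend, the change of *Vcan* came to 0.56 with GDF15 and 0.70 with TGF-β. Among the 194 genes with transcripts over 10000 bases, 4 were at least as high as *Vcan* by GDF15, itself included, and 4 by TGF-β.

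**Figure D2:**
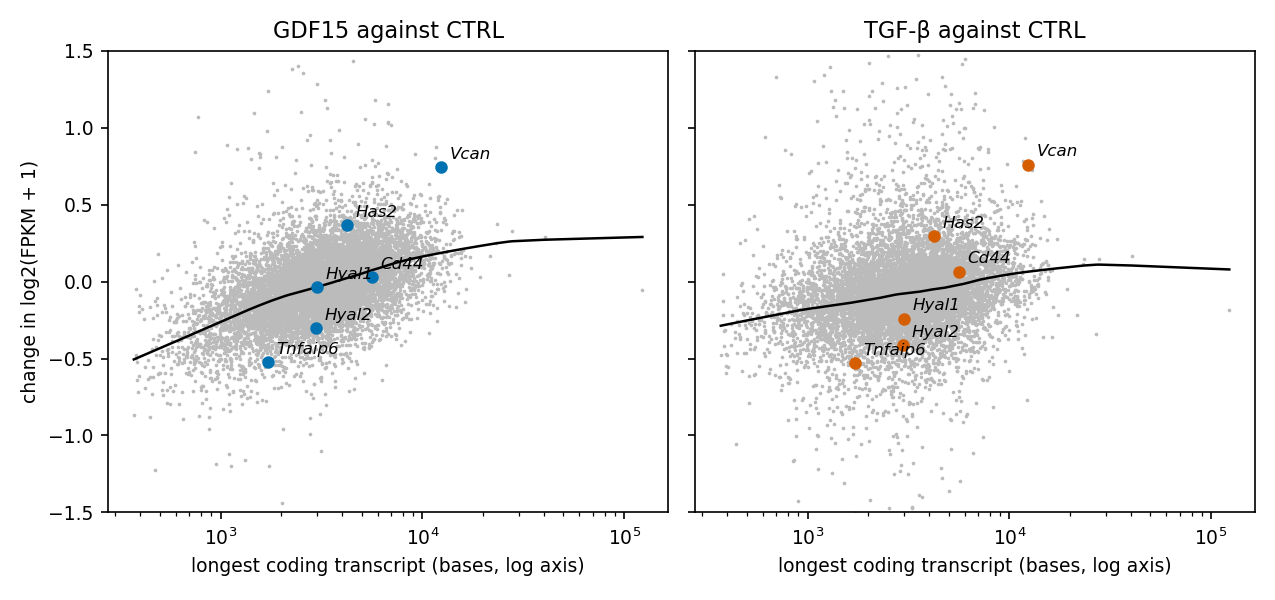
Change in log2(FPKM + 1) against the length of the longest coding transcript (bases, log axis) for 9194 expressed genes (grey), with the fitted trend (line) and the 6 hyaluronan genes in this range (colour); 17 and 40 genes beyond 1.5 in size are not drawn. *Vcan* lies above the line in each panel, by 0.56 for GDF15 and 0.70 for TGF-β.

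*Cd44* differed little between the libraries. *Cd44* (chromosome 2, 102811141 to 102901665, minus strand) was expressed at an FPKM of 45.6 in CTRL, 46.6 with GDF15 and 47.7 with TGF-β. Neither stimulated library stood apart, the higher of them being 4.60% above CTRL. This is a change of 0.03 with GDF15 and 0.06 with TGF-β, inside the local spreads of 0.21 and 0.21. The counting interval was -0.03 to 0.09 for GDF15 and 0.003 to 0.13 for TGF-β, just above 0 for the latter. As with *Vcan*, 8 coding transcripts of *Cd44* that differ by variant exons could not be told apart in these values.

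In CTRL, *Vcan* and *Cd44* stood at about the same level, 1.04 to 1, with overlapping counting intervals (46.5 to 48.4 and 44.3 to 47.0). In the stimulated libraries, the level of *Vcan* was 1.72 times that of *Cd44* in GDF15 and 1.70 times in TGF-β. *Vcan* was higher than 92.3% of all rows in CTRL and 96.3% in GDF15.

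*Tnfaip6*, the gene whose promoter holds the AP-1 and CAGAC letters printed above, was lower in both stimulated libraries. A link of these letters to its level was not tested. The gene lies on chromosome 2 (52038009 to 52056686, plus strand), with a single transcript of 1710 bases in 6 exons. Its FPKM was 11.5 in CTRL, 7.74 with GDF15 and 7.69 with TGF-β. Both stimulated libraries stood below CTRL and close to each other, at 0.670 of CTRL in GDF15 and 0.667 in TGF-β. This is a change of -0.52 with GDF15 and -0.53 with TGF-β, -2.60 and -2.09 local spreads from the local median. With an estimated 333, 260 and 208 fragments, the counting interval was -0.82 to -0.34 for GDF15 and -0.84 to -0.33 for TGF-β. A value as low was present in 2.42% of the 9226 rows for GDF15 and 4.12% for TGF-β. The transcript is short, and after subtraction of the length trend the change came to -0.39 with GDF15 and -0.40 with TGF-β. The ratio of *Tnfaip6* to *Vcan* was 0.243 in CTRL, 0.0966 with GDF15 and 0.0949 with TGF-β.

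**Figure D3:**
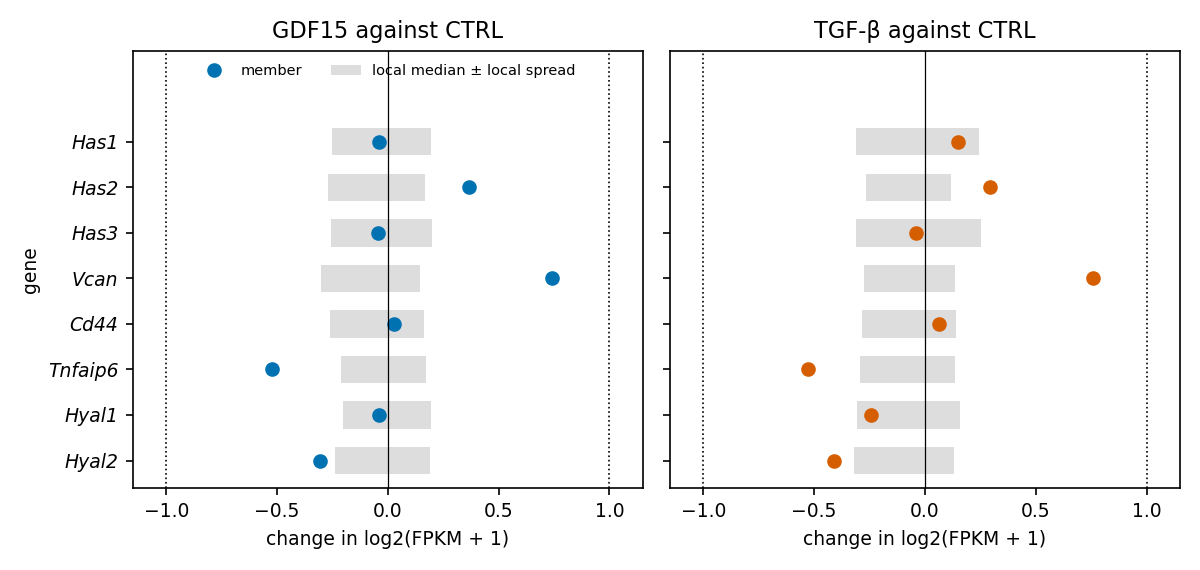
Change in log2(FPKM + 1) of each hyaluronan gene against CTRL (points), beside the local median ± local spread of the rows nearest in mean FPKM (grey bars); dotted lines mark 2-fold. *Vcan* at 0.74 and 0.76, *Has2* at 0.36 and 0.30, and *Tnfaip6* at -0.52 and -0.53 lie outside the grey bars in both panels, as does *Hyal2* at -0.30 and -0.41.

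The hyaluronidases were expressed at lower levels than *Has2*, and both were lowest in TGF-β. *Hyal2*, whose product is anchored at the cell surface, lies on chromosome 9 (107567945 to 107572779) and reached an FPKM of 14.0 in CTRL, 11.1 with GDF15 and 10.2 with TGF-β. Both stimulated libraries were below CTRL. This is a change of -0.30 with GDF15 and -0.41 with TGF-β, which is -1.32 and -1.39 local spreads from the local median. The counting interval was -0.49 to -0.17 for GDF15 and -0.62 to -0.28 for TGF-β. Values as low were common among the 9226 rows, 11.2% for GDF15 and 8.32% for TGF-β.

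*Hyal1*, the lysosomal enzyme, is the neighbour of *Hyal2* on the same strand (107576927 to 107581710). Its FPKM was 4.41 in CTRL, 4.28 with GDF15 and 3.58 with TGF-β. The GDF15 library was at the level of CTRL, with a change of -0.04, and the TGF-β library was lower, with a change of -0.24, -0.71 local spreads from the local median. The counting interval for TGF-β was -0.59 to -0.004. *Hyal1* shares 1920 of its 3777 exon bases with *Nat6* (*Naa80* in GENCODE M21) on the same strand, which the library cannot resolve by strand. *Nat6* was more abundant, with an FPKM of 10.6, 9.50 and 9.21. The level of *Hyal1* is therefore uncertain, and the part of *Nat6* in its difference was not tested.

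**Figure D4:**
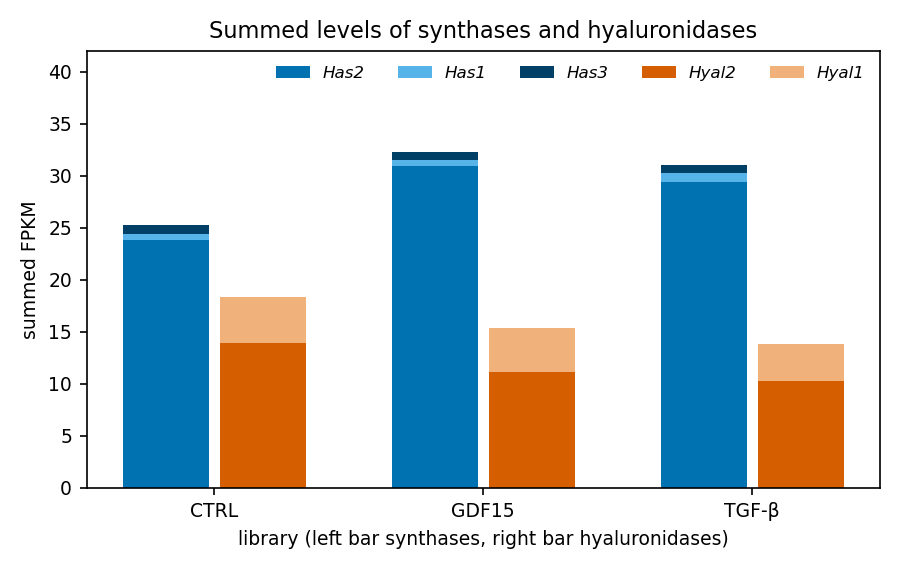
Summed FPKM of the synthases (left bar, *Has2*, *Has1* and *Has3*) and of the hyaluronidases (right bar, *Hyal2* and *Hyal1*) in each library. The synthase sum is 25.2, 32.2 and 31.0 and the hyaluronidase sum is 18.4, 15.4 and 13.8 in CTRL, GDF15 and TGF-β. The level of *Hyal1* is uncertain because its exons overlap those of *Nat6*.

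*Hyal2* gave 76.0%, 72.2% and 74.1% of the summed FPKM of *Hyal1* and *Hyal2* in CTRL, GDF15 and TGF-β. The sum was 18.4, 15.4 and 13.8. The ratio of the synthase sum to the hyaluronidase sum was 1.37 in CTRL, 2.10 with GDF15 and 2.24 with TGF-β. This ratio was formed after the values were seen, and it compares transcripts, not enzyme activity or hyaluronan. The shares, the hyaluronidase sum and the ratio include the uncertain level of *Hyal1*. They leave out *Tmem2*, another hyaluronidase gene, with an FPKM of 3.84, 3.89 and 3.90 in CTRL, GDF15 and TGF-β.

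The order of levels was *Vcan*, *Cd44*, *Has2*, *Hyal2*, *Tnfaip6* and *Hyal1* in all 3 libraries, followed by *Has3* and *Has1* in CTRL and GDF15 and by *Has1* and *Has3* in TGF-β. The intervals of *Has1* and *Has3* overlapped in each library, and those of *Vcan* and *Cd44* in CTRL. In CTRL, *Hyal2* (12.9 to 15.0) and *Tnfaip6* (10.3 to 12.9) nearly met. Between TGF-β and GDF15, the differences of the 8 genes ran from -0.20 (*Hyal1*) to 0.19 (*Has1*), and the counting intervals of all 8 genes spanned 0 in that comparison.

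The genes closest in both changes were sought among the expressed rows, by Euclidean distance over the 2 changes from 3 libraries. For *Vcan*, they were *Nhsl2*, *Plk2* and *Pkia*, at distances of 0.04, 0.04 and 0.05, and 7 genes lay within 0.1. *Nhsl2* was weakly expressed, with an FPKM of 0.744 in CTRL, 1.91 with GDF15 and 1.88 with TGF-β. The pseudocount makes its changes look smaller. For *Tnfaip6*, they were *Baiap2*, *Ndufs7* and *Pcgf2*, with 59 genes within 0.1. For *Has2*, they included *Serinc1* and *Hif1a*, with 205 genes, and for *Cd44*, *Mogs*, *Ino80c* and *Mtpap*, with 1064 genes. Fewer genes lie near a gene the further its changes are from 0, so these numbers follow the size of the changes.

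A wider list of 53 genes for precursors, other binding proteins, cross-linkers, breakdown, versican cleavage and CD44 partners was followed by role. The table holds 49 of them, of which 27 were expressed and 9 were at 0 in all 3 libraries. *Hyal5*, *Hyal6*, *Cemip* and *Adamts9* were not analysed here. By GDF15, 0 of the 49 genes passed 2-fold, and by TGF-β, *Ptx3* was higher and *Spp1* lower, which is 2 of 49, where 0.289% and 0.913% of all rows passed for GDF15 and TGF-β, and 44 and 137 of the 9226 expressed rows. The median change of the 27 genes came to 0.12 with GDF15 and 0.03 with TGF-β, beside -0.03 and -0.07 over the 9226 rows of the same range.

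The 7 genes of precursor supply were all higher than CTRL in both stimulated libraries, where 44.4% of the 9226 rows were higher in GDF15 and 37.2% in TGF-β. Their median change came to 0.14 with GDF15 and 0.39 with TGF-β, and none passed 2-fold. By GDF15, the changes of *Ugdh* (0.18), *Ugp2* (0.13), *Gfpt2* (0.14), *Pgm3* (0.12) and *Uap1* (0.07) were smaller than their local spreads. Only those of *Gfpt1* (0.31) and *Gnpnat1* (0.35) were larger than theirs. By TGF-β, only that of *Gfpt1* (0.12) was smaller than its local spread (0.23). *Ugdh*, which makes UDP-glucuronic acid, had an FPKM of 72.6 in CTRL, 82.4 with GDF15 and 99.2 with TGF-β. *Ugp2*, which makes the UDP-glucose before it, had an FPKM of 22.9, 25.3 and 30.4. *Gfpt2*, of the hexosamine pathway, had the largest change of the 7 by TGF-β, 0.53. *Gfpt1*, of the same pathway, was higher with GDF15 than with TGF-β, at 13.8 in CTRL, 17.4 with GDF15 and 15.0 with TGF-β. These sugars also feed the synthesis of other glycans.

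Among 15 other hyaluronan-binding proteins, 4 were expressed, and the cartilage and brain proteoglycans *Acan*, *Bcan* and *Ncan* and the link protein genes *Hapln1* to *Hapln4* were not. *C1qbp* had the highest level, at 94.1, 83.4 and 86.2 FPKM, followed by the receptor gene *Layn*, with 30.6 in CTRL and 24.6 in TGF-β, where it was lowest. The changes of the 4 genes by GDF15 were between -0.28 and 0.09, and those by TGF-β between -0.56 and -0.12. *Hmmr*, whose product also acts at the mitotic spindle, was at 9.25 in CTRL, 9.94 with GDF15 and 5.96 with TGF-β.

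TSG-6 transfers heavy chains that are encoded by *Itih* genes and secreted mainly by liver. Of *Itih1* to *Itih5* and *Ambp*, *Itih1*, *Itih3*, *Itih5* and *Ambp* were at 0 in all 3 libraries, and *Itih2* and *Itih4* were below 0.1 in each. The pentraxin gene *Ptx3*, whose product joins heavy chain complexes of hyaluronan, had an FPKM of 5.81 in CTRL, 9.30 with GDF15 and 12.8 with TGF-β. Its change came to 0.60 with GDF15 and 1.02 with TGF-β, just over the criterion, and the latter stayed over 1 under the 7 alternatives listed in the closing section.

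For breakdown, the lysosomal exoglycosidase gene *Hexa* was more abundant than either hyaluronidase. Its FPKM was 113, 97.5 and 79.0, with a change of -0.52 by TGF-β. *Hyal3* was below 0.5 in all 3 libraries, *Hyal4* and *Spam1* were at 0, and *Tmem2*, a cell surface hyaluronidase, was at 3.84, 3.89 and 3.90. Of the proteases that cut versican, *Adamts1* had an FPKM of 37.4, 47.4 and 40.0. *Adamts5* had an FPKM of 21.5, 34.0 and 33.6, and its changes of 0.64 and 0.62 were the largest of this role. Its transcript is long as well, and less the length trend the changes were 0.47 and 0.57, the former below the bound of 0.5.

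Among 8 CD44 partners and shedding enzymes, *Spp1* stood apart. *Spp1* encodes osteopontin, a ligand of CD44 and integrins, and had an FPKM of 556 in CTRL, 322 with GDF15 and 224 with TGF-β. Its change came to -0.78 with GDF15 and -1.31 with TGF-β. Of the enzymes that shed CD44, *Mmp14* was at 238, 214 and 164, with changes of -0.15 and -0.53. *Adam10* was at 29.8, 40.7 and 36.0, higher than CTRL in both, with changes of 0.44 and 0.27. *Adam17* had changes of -0.02 and -0.26. *Msn*, for moesin, which ties the tail of CD44 to actin, was at 85.3, 115 and 139, with changes of 0.43 and 0.70. Those of the related *Ezr* were 0.02 and 0.03, and those of the related *Rdx* were 0.27 and 0.04.

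**Figure D5:**
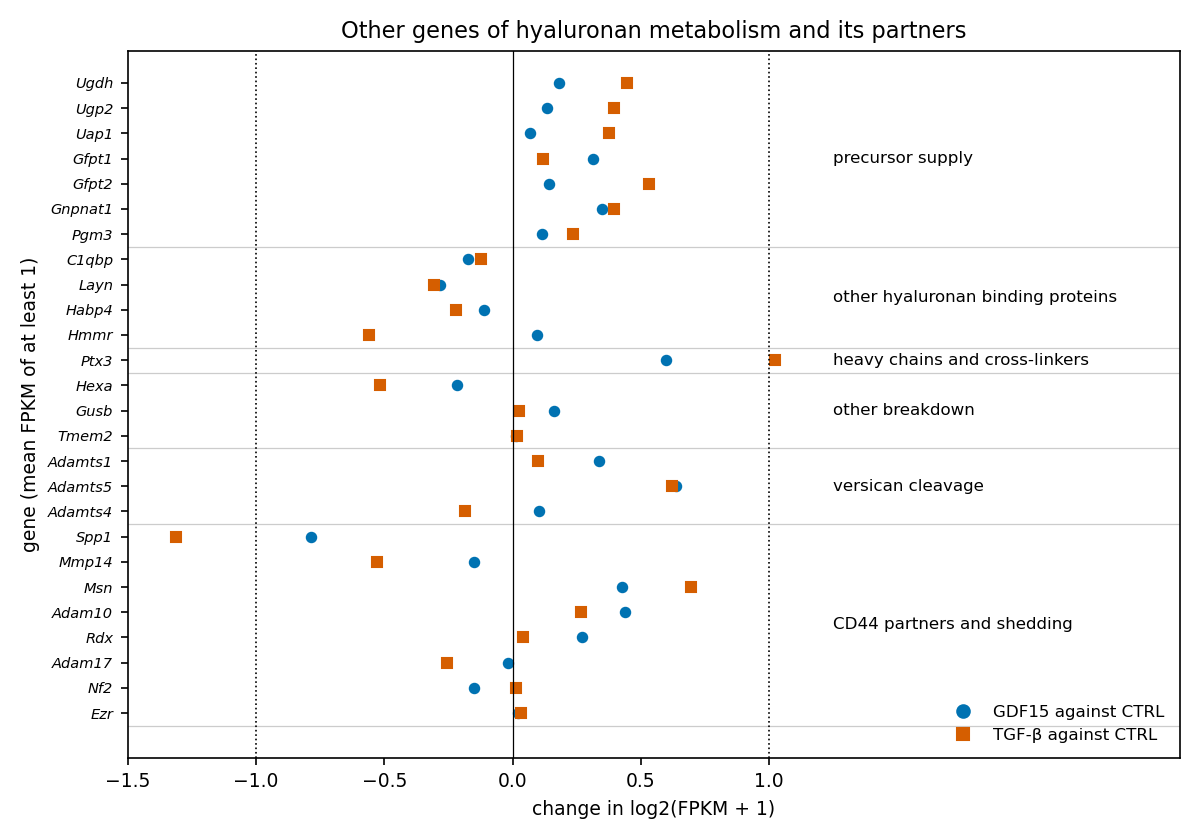
Change in log2(FPKM + 1) against CTRL of the expressed genes of the wider list by role, without 1 gene that is not drawn (circles GDF15, squares TGF-β); dotted lines mark 2-fold. The 7 precursor genes lie to the right of 0, and past the lines lie only *Ptx3* (1.02) and *Spp1* (-1.31), both by TGF-β.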

How the data were processed

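RNA was pooled within each treatment before library preparation with a stranded mRNA kit, and sequenced in single-end mode. The deposited FPKM were computed by the authors using Cufflinks, for UniProt-reviewed protein coding genes. The submitters' processing notes list TopHat 1.3.2, Bowtie 0.12.9, Cufflinks 2.0.2 and mm10 (GRCm38). The gene annotation is not given in the sources used here. Columns were matched to samples by the treatment in their names.

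From the FPKM as deposited, log2(FPKM + 1) was computed over all 15554 rows, with no filter. A difference over 1 was the criterion. Libraries have no replicates, so no test was made. Lengths, positions and overlaps are from GENCODE M21, with the longest coding transcript of each gene. Fragment numbers are estimates and are too high where shorter forms prevail. Depth was read from genes with 1 annotated transcript (1111 to 1136 per library). Counting intervals are exact (Poisson for a level, conditional binomial for a ratio). The length trend was a lowess fit (fraction 0.3) on the expressed genes. Scripts were tested on simulated data.

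The members and lists were chosen with earlier results of these data known. All 8 members are named, and of the wider list those over 2-fold, the 1 or 2 most abundant per role and others with larger changes, the latter chosen after their values were seen. The values of 2 genes that this rule names are not reported here. Alternatives are in the closing section. The software was Python 3.11.15, numpy 2.4.6, pandas 2.3.3, scipy 1.17.1, statsmodels 0.14.6 and matplotlib 3.10.9.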

Additional observations from a re-analysis of the deposited data

How the results depend on the processing

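No paired analysis was possible because a treatment is a single library of pooled RNA. Nor could a library be omitted. The 8 genes gave 162 values under 7 alternatives. These were pseudocounts of 0.5 and 0.1, no pseudocount and only rows without a 0, only expressed rows, and a common upper quartile. The others were subtraction of the running median by expression or of the length trend. Keeping only expressed rows does not alter the change of a kept gene, so those values could not move. Of the 162 values, 161 differed from their main value by no more than the local spread. The exception was *Has1* in TGF-β against GDF15, 0.45 without a pseudocount. Signs differed in 4 values, each with a main size under 0.2. The 8 genes gave 0 calls over 2-fold under all 7. The change of *Vcan* ranged from 0.56 to 0.82 by GDF15 and from 0.70 to 0.83 by TGF-β, that of *Has2* from 0.34 to 0.42 and from 0.30 to 0.37, that of *Tnfaip6* from -0.58 to -0.39 and from -0.58 to -0.40, and that of *Hyal2* from -0.33 to -0.27 and from -0.45 to -0.32.

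At a bound of 0.5 in size, chosen after seeing the data, 2 members were called for GDF15 and 2 for TGF-β, 3 and 8 genes of the wider list and 484 and 828 of all rows. *Tnfaip6* loses this call under the alternatives named beside it in the report. Less the length trend, so do *Adamts5* by GDF15 (0.47) and *Hexa* and *Mmp14* by TGF-β (-0.40 and -0.46), while *Ugdh* by TGF-β gains it (0.54). Without a pseudocount, 1 gene of the wider list was called by GDF15, *Stab1*, at an estimated 8.33 fragments in CTRL, and 3 by TGF-β, *Stab1*, *Ptx3* and *Spp1*. Between TGF-β and GDF15, this setting called *Itih4* and *Adamts15*, both listed below an FPKM of 0.1. Counts of rows over 2-fold grew as the pseudocount shrank, and the setting without one also leaves out rows with a 0. For GDF15 there were 71 at 0.5, 315 at 0.1 and 589 without one, against 45, and for TGF-β 489 at 0.1 and 789 without one, against 142. The split of these rows moved too. For GDF15, 33 higher and 12 lower became 139 and 176 at 0.1 and 252 and 337 without a pseudocount. For TGF-β, 90 and 52 became 243 and 246 at 0.1, 417 and 372 without a pseudocount, and 105 and 37 after subtraction of the length trend. The cause was not tested. Depth limits *Has1* and *Has3*, and the missing replicates limit all values.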
